A study of Homo sapiens with 6 samples.

Results

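The genes described here are the noncoding transcripts that carry microRNAs or small nucleolar RNAs (snoRNAs) inside them, measured in THP1 cells cultured on the Notch ligand Dll4-Fc. THP1 is an established monocytic cell line derived from acute myeloid leukaemia. Members were chosen by symbol: names of the form MIR...HG for microRNA host genes, and SNHG with a number, GAS5, DANCR and ZFAS1 for snoRNA host genes. A gene counted as a member only if a probe set on the array was annotated with exactly 1 gene symbol and that symbol matched, and the brightest of its probe sets, by mean over the arrays, stood for it. This gave 50 genes of 19775 measured, 36 microRNA hosts and 14 snoRNA hosts, with 77 probe sets between them. The Dll4-Fc group was 3 samples grown for 48 hours on plates coated with Delta-like 4, a Notch ligand, fused to an antibody Fc part. The untreated group was 3 samples of the same line without the ligand, in the same serum-containing medium. The coating dose is 30 nM in the protocol but 60 nM in the labels of the treated samples, and which was used is not known; likewise the control is vehicle in the protocol but untreated in the labels. No well with Fc alone is named in the labels, and 1 cell line was used. The labels do not say whether samples of a group were separate cultures, so the p-values reflect how much these samples varied, and that variation may be technical.

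A microRNA host gene is transcribed as a long precursor from which the Drosha and Dicer enzymes cut short hairpins and then mature microRNAs, and the remaining spliced transcript is often unstable. The mature microRNA binds messenger RNAs through its seed, bases 2 to 8 from its 5′ end. SnoRNAs are trimmed from introns of their hosts and guide the chemical modification of ribosomal RNA, and the spliced host transcript is left behind. Many snoRNA hosts start with a pyrimidine tract like that of ribosomal protein genes and are degraded by nonsense-mediated decay when translated. The array probes read host transcripts, so a host's signal is not the level of the small RNA it carries. In bulk samples, fewer cells of a type and less RNA per cell cannot be told apart.

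Of the 36 microRNA hosts, 29 had at least 1 microRNA hairpin of the RefSeq table (GRCh38.p14) within their span, 46 hairpins in all. For the 6 hosts that passed the test below, 1 mature arm of a hairpin is shown, or 2 for MIRLET7BHG, to show what those transcripts carry. MIRLET7BHG also holds miR-3619 and miR-4763, which are not shown. Capitals mark the seed.
hsa-miR-1915-3p: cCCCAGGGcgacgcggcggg
hsa-miR-9-5p: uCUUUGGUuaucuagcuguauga
hsa-miR-550a-3p: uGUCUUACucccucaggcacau
hsa-let-7a-5p: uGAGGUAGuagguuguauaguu
hsa-let-7b-5p: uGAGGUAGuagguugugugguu
hsa-miR-181a-5p: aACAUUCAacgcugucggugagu
hsa-miR-3681-5p: uAGUGGAUgaugcacucugugc
The 2 let-7 microRNAs, both inside MIRLET7BHG at chr22:46112752-46112773 and chr22:46113691-46113712 on the plus strand, shared the seed GAGGUAG. The other 5 seeds differed from it and from each other. MiR-1915-3p lies at chr10:21496576-21496595 on the minus strand and miR-9-5p at chr15:89368032-89368054 on the plus strand. MiR-550a-3p lies at chr7:29680748-29680769 on the minus strand. MiR-181a-5p lies at chr9:124692480-124692502 and miR-3681-5p at chr2:12199138-12199159, both on the plus strand. The miR-17 cluster, a group of growth-promoting microRNAs carried by MIR17HG, is shown because its host is a well-known MYC target.
hsa-miR-17-5p: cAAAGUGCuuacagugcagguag
hsa-miR-20a-5p: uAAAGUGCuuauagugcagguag
hsa-miR-18a-5p: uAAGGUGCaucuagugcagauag
hsa-miR-19a-3p: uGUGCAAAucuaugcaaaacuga
hsa-miR-19b-3p: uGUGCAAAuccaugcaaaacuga
hsa-miR-92a-3p: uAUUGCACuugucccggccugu
MiR-17-5p and miR-20a-5p shared the seed AAAGUGC, and miR-19a-3p and miR-19b-3p shared GUGCAAA.

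Signals are log2 intensities. Each is followed by the difference, Dll4-Fc minus untreated, with its standard error (n = 3 arrays per group) and limma's Benjamini-Hochberg adjusted p over all 19775 genes, with 0.05 as the threshold. Levels are not compared between genes, since each probe set has its own response. Arrays sharing a treatment had correlations of 0.997 to 0.999 across genes, against 0.981 to 0.985 for pairs of unlike treatment. Over all genes 26.6% passed, 11.6% as higher and 15% as lower in Dll4-Fc arrays, so that 43.7% of all calls were higher. With cyclic loess scaling this split was 53.7% higher. The median difference over all genes was -0.01.

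Among the 50 host genes, 7 fell (14%) and 0 rose in Dll4-Fc arrays by limma. At an unadjusted p under 0.05, 10 were lower and 1 was higher, against 4144 lower and 3050 higher of all 19775 genes. By adjusted p, the share that fell was near the 15% of all genes. The share that rose was below the 11.6% of all genes, a difference that was not tested. The median difference of the 50 was -0.03, with 30 negative and 20 positive. Differences of the members that did not pass ran between -0.81 and 0.35. The fallen members were 6 of 36 microRNA hosts (16.7%) and 1 of 14 snoRNA hosts (7.14%). The groups did not overlap for 13 members (26%), 11 of them lower and 2 higher, where 41.6% of all genes had no overlap, 23.5% lower and 18.1% higher. Of the 18 members at or above the median probe set signal of 5.69, 6 fell and 0 rose, while 21.3% of all genes that bright fell and 16% rose. Of the 32 members below it 1 fell and 0 rose, where 3.54% of all genes that dim fell and 3.58% rose. A fall of at least 2-fold was found for 2 members, against 0.602% of all genes, and a rise of that size for 0, against 2.6% of all genes.

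**Figure D1:**
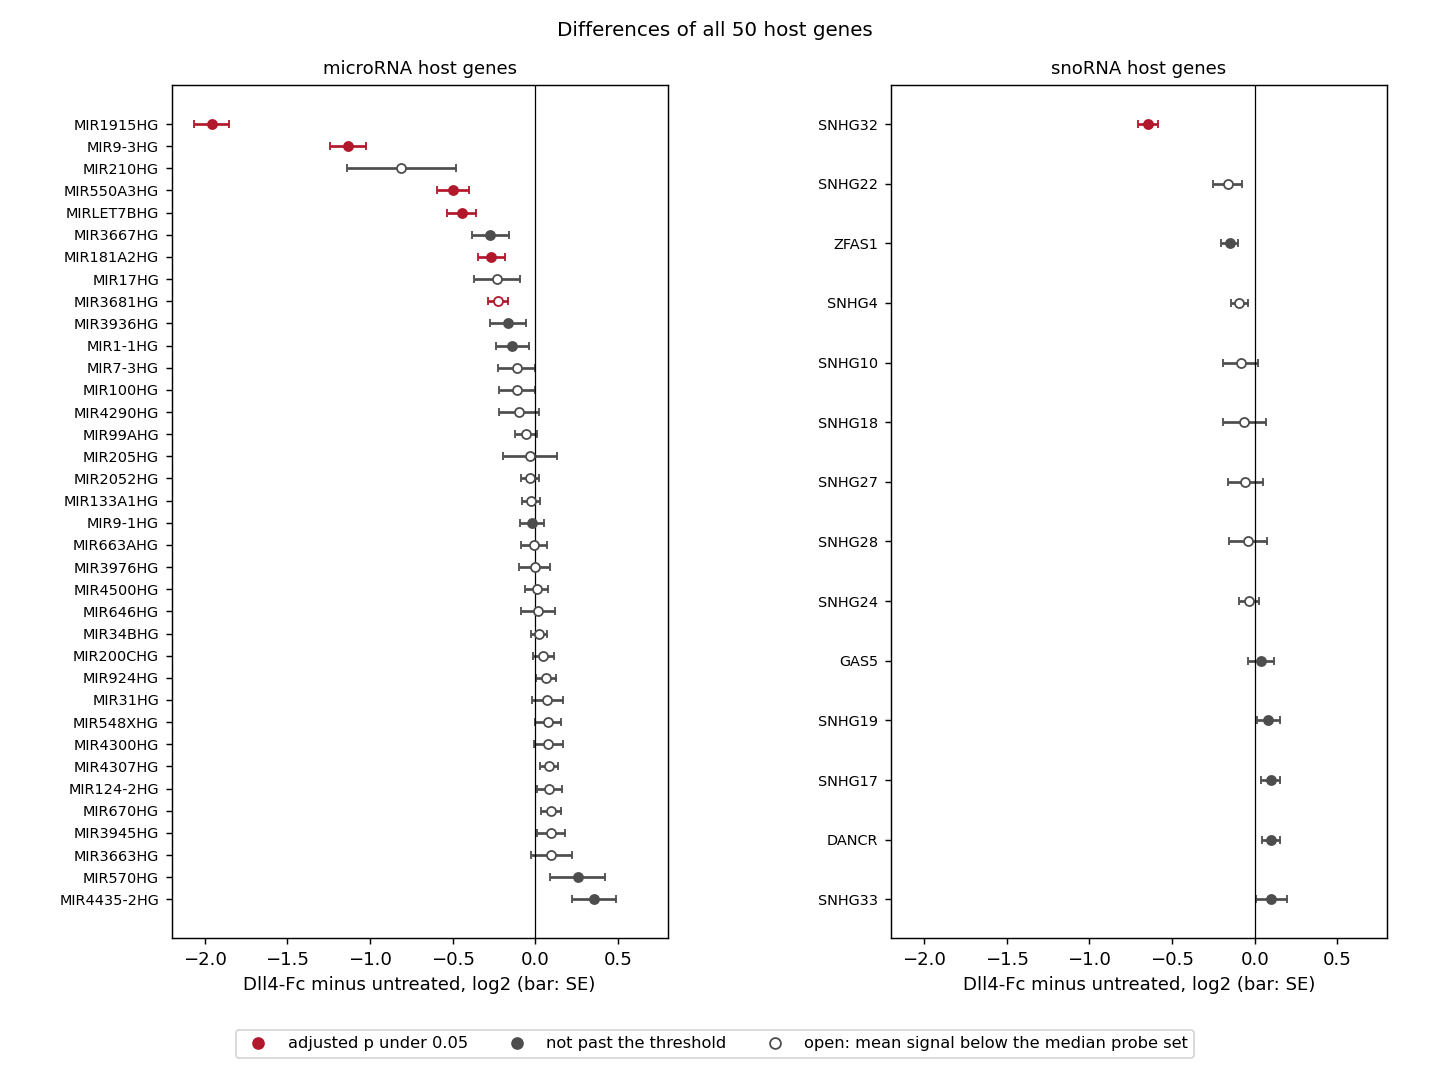
Log2 difference between Dll4-Fc and untreated arrays for each of the 50 host genes, with bars for the standard error (n = 3 arrays per group). MicroRNA and snoRNA hosts have a panel each, red marks an adjusted p under 0.05 and open points lie below the median probe set signal. The 7 red points lie on the negative side, from -1.96 for MIR1915HG to -0.23 for MIR3681HG.

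MIR1915HG, also known as CASC10, is a chromosome 10 transcript that holds the hairpin of miR-1915. It had signals of 7.69, 7.61 and 7.98 in Dll4-Fc arrays, against 9.83, 9.72 and 9.61 in untreated arrays. All Dll4-Fc arrays were lower than all untreated arrays, by more than the spread within either group. The difference of -1.96 ± 0.11 was a 3.89-fold fall (adjusted p 1.5e-05). This was the lowest difference among the 50 members.

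MIR9-3HG, also known as LINC00925, holds 1 of the genomic copies of miR-9, a microRNA known for its role in neural development and in blood cells. Its signals were 6.39, 6.13 and 6.58 in Dll4-Fc arrays, against 7.47, 7.48 and 7.54 in untreated arrays. Every Dll4-Fc array was below every untreated array. The difference was -1.13 ± 0.11, a 2.19-fold fall (adjusted p 0.000273). MIR9-1HG, the host of another miR-9 copy, had a difference of -0.02 (adjusted p 0.883).

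MIR550A3HG, which holds a miR-550a hairpin, had signals of 6.37, 6.43 and 6.53 in Dll4-Fc arrays, against 7.07, 7.01 and 6.73 in untreated arrays. All Dll4-Fc arrays were lower, although untreated replicate 3 lay near them. It fell by 0.50 ± 0.10 (adjusted p 0.00831), 1.41-fold. MIRLET7BHG carries let-7a and let-7b, microRNAs known as repressors of growth genes. Its signals were 7.71, 7.49 and 7.55 in Dll4-Fc arrays, against 7.93, 7.99 and 8.17 in untreated arrays. The groups did not overlap, and it fell by 0.45 ± 0.09, 1.36-fold (adjusted p 0.00791).

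The other 2 microRNA hosts that passed had smaller differences. MIR181A2HG holds a hairpin of miR-181a, a microRNA known from lymphoid development. Its signals were 5.98, 6.01 and 5.89 in Dll4-Fc arrays, against 6.33, 6.07 and 6.27 in untreated arrays. The gap between the closest arrays of the groups was small, and the difference was -0.27 ± 0.08 (adjusted p 0.0455). MIR3681HG had signals of 5.07, 5.14 and 4.99 in Dll4-Fc arrays and 5.36, 5.29 and 5.24 in untreated arrays. It was dim, with a mean signal of 5.18 against the median probe set signal of 5.69. Its difference was -0.23 ± 0.06 (adjusted p 0.0341). Neither call held throughout: with cyclic loess scaling MIR181A2HG had an adjusted p of 0.0531, and with the mean of all its probe sets MIR3681HG had 0.491. Leaving out an array also ended the call of MIR181A2HG, except where untreated replicate 2 was the array omitted. That of MIR3681HG was lost without untreated replicate 1 or 2, or without Dll4-Fc replicate 1 or 3.

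MIR17HG did not pass, and its 1 probe set was dim, with a mean signal of 4.02 against the median probe set signal of 5.69. It had signals of 4.09, 3.80 and 3.80 in Dll4-Fc arrays, against 4.32, 4.23 and 3.84 in untreated arrays. The groups overlapped, and the difference was -0.23 ± 0.14 (adjusted p 0.281). Leaving out 1 array moved it between -0.38, without untreated replicate 3 (adjusted p 0.0380), and -0.14, without untreated replicate 1 (adjusted p 0.575), and it passed only in that first case. MYC, which is known to activate this cluster, fell in the same arrays, with 11.40, 11.41 and 11.40 in Dll4-Fc arrays, against 11.98, 11.92 and 11.88 in untreated arrays. Its difference was -0.53 ± 0.05 (adjusted p 0.000317), and a link with MIR17HG was not tested.

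MIR210HG holds miR-210, a microRNA known to be induced by low oxygen. Its signals were 4.77, 5.08 and 5.14 in Dll4-Fc arrays, against 5.36, 5.41 and 6.66 in untreated arrays. There was no overlap, and untreated replicate 3 stood above the other arrays. The difference of -0.81 ± 0.33 did not pass (adjusted p 0.119), and without that array it was -0.39. MIR4435-2HG, also known as MORRBID, is a regulator of the lifespan of myeloid cells in mice. It had 6.67, 6.56 and 6.39 in Dll4-Fc arrays, against 6.34, 5.90 and 6.32 in untreated arrays. All Dll4-Fc arrays were higher, and the difference of 0.35 ± 0.13 was the highest among the 50 members but did not pass (adjusted p 0.0930). With arrays weighted by quality it was 0.54 and passed (adjusted p 0.0143). Without untreated replicate 2 it was 0.21 (adjusted p 0.187), and with the mean of its probe sets it was 0.19 (adjusted p 0.169). The other probe set in that mean had a mean signal of 3.02.

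**Figure D2:**
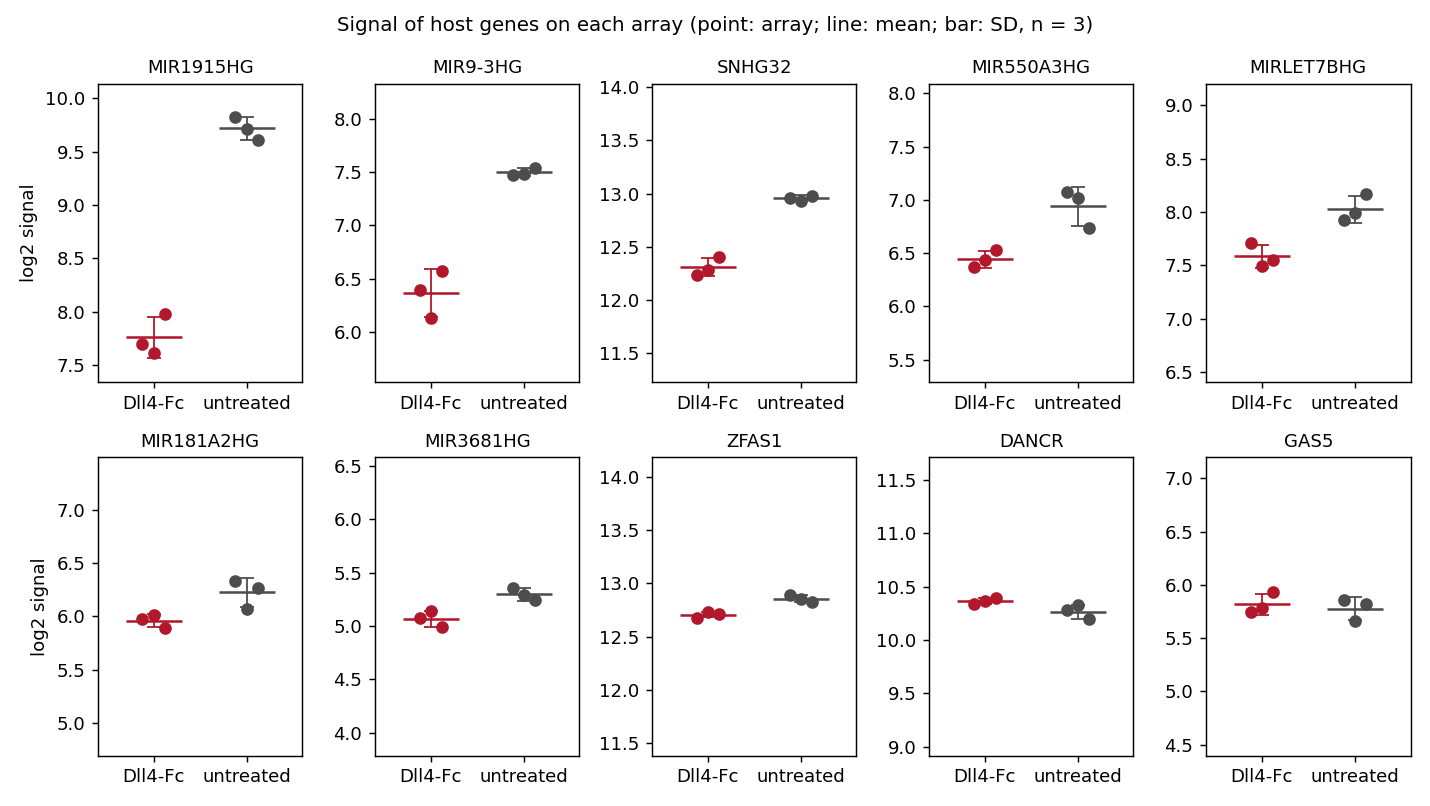
Log2 signal of 10 host genes, the 7 that passed and ZFAS1, DANCR and GAS5, with 1 point per array, a line at the group mean and a bar for the SD (n = 3), Dll4-Fc left of untreated. The axes all span the same range, so distances can be compared between panels. The groups are furthest apart for MIR1915HG, with means of 7.76 in Dll4-Fc and 9.72 in untreated arrays, and they overlap for GAS5.

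Among the snoRNA hosts, 9 of 14 held annotated snoRNAs, 27 in all. The host that fell was SNHG32, also known as C6orf48, which carries SNORD48 and SNORD52, guides of ribosomal RNA methylation. Its signals were 12.24, 12.29 and 12.40 in Dll4-Fc arrays, against 12.96, 12.93 and 12.98 in untreated arrays. The groups did not overlap, and the difference was -0.65 ± 0.06, a 1.56-fold fall (adjusted p 0.000257). SNHG32 was represented by 1 probe set, of a type that the array maker marks as able to match more than 1 transcript, so signal from a related sequence cannot be told apart from it. Leaving out such probe sets left 11 snoRNA hosts, of which 0 passed.

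ZFAS1, which carries 3 snoRNAs of the SNORD12 family, had signals of 12.68, 12.73 and 12.71 in Dll4-Fc arrays, against 12.89, 12.85 and 12.83 in untreated arrays. All Dll4-Fc arrays were lower, and the difference was -0.15 ± 0.05 (adjusted p 0.0699). With a trended robust variance prior it passed (adjusted p 0.000937), and likewise without dim genes (0.0285) and with array weights (0.0254). With the mean of all its probe sets, which took in a dimmer probe set at 6.33, it was -0.075 (adjusted p 0.424). It did not pass when any single array was omitted. DANCR carries SNORA26 and is known for holding progenitor cells undifferentiated. It had 10.34, 10.36 and 10.39 in Dll4-Fc arrays, against 10.28, 10.32 and 10.19 in untreated arrays. The groups did not overlap, and the difference was 0.10 ± 0.06 (adjusted p 0.273). GAS5, named for its accumulation in growth-arrested cells, carries 11 snoRNAs. It had 5.74, 5.78 and 5.93 in Dll4-Fc arrays, against 5.86, 5.66 and 5.82 in untreated arrays. The groups overlapped, and the difference was 0.04 ± 0.08 (adjusted p 0.784). This rests on 1 probe set with a mean signal of 5.80, just above the median probe set signal of 5.69. The remaining snoRNA hosts had differences from -0.16 for SNHG22 to 0.10 for SNHG33, and none passed.

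Of the 50 members, 19 had several probe sets with 1 symbol, and 7 of those 19 had probe sets of mixed sign. In a fit over all 54675 probe sets, 7 of the 77 host probe sets fell and 1 rose, where 9.25% of all probe sets fell and 7.21% rose. All 3 probe sets of MIR1915HG fell. Its second had 7.24, 7.19 and 7.49 in Dll4-Fc arrays, against 9.08, 9.18 and 9.07 in untreated arrays, a difference of -1.80. The third differed by -0.77, also without overlap, so the size of the fall ranged widely between probe sets. The other probe set of MIR9-3HG differed by -0.36 (adjusted p 0.146) and that of MIRLET7BHG by -0.10 (adjusted p 0.505). Means over the probe sets were -0.75 for MIR9-3HG and -0.27 for MIRLET7BHG, and both passed. That of MIR550A3HG had the opposite sign, 0.12 (adjusted p 0.433), and the mean of its probe sets did not pass (-0.19, adjusted p 0.0529). These other probe sets of MIR550A3HG and MIRLET7BHG, and the second of MIR1915HG, were of the type able to match more than 1 transcript. Without shared probe sets MIR550A3HG was at -0.50 and passed (adjusted p 0.00837). MIR3681HG had probe sets of both signs. One rose by 0.28 (adjusted p 0.0367) with 4.32, 4.38 and 4.19 in Dll4-Fc arrays, against 3.99, 4.01 and 4.07 in untreated arrays, and the other 2 did not pass there. The mean of its probe sets was 0.06 higher in Dll4-Fc arrays. The probe sets of ZFAS1 differed by -0.17, -0.15, -0.16 and 0.18. The last of these had a mean signal of 6.33 and overlapping groups, while the others had means of 12.45 to 12.78. All were of the type able to match more than 1 transcript.

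**Figure D3:**
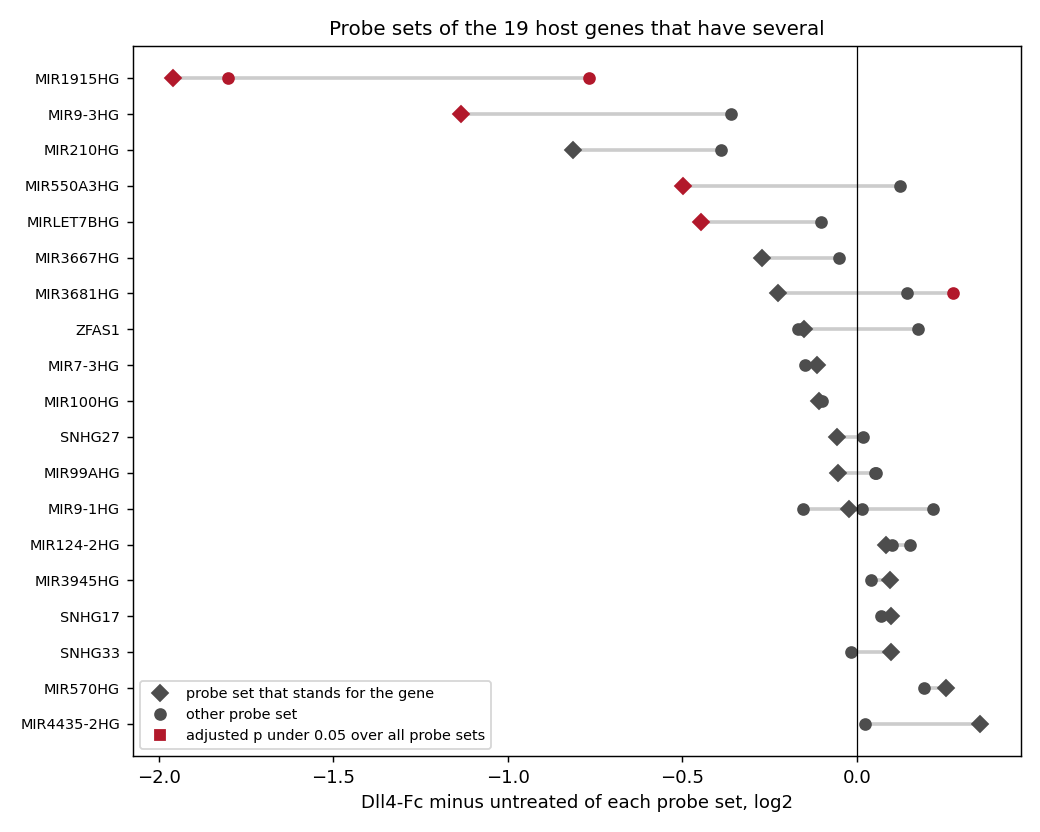
Log2 difference, Dll4-Fc minus untreated, of each probe set of the 19 host genes that have several. Diamonds are the probe sets that stand for a gene, circles the others, and red marks an adjusted p under 0.05 over all probe sets. The 3 probe sets of MIR1915HG lie between -1.96 and -0.77, while those of MIR3681HG lie on both sides of 0.

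A further 63 probe sets listed a host together with other symbols and could not be given to 1 gene. Of these, 4 passed as higher (6.35%) and 7 as lower (11.1%), with differences from -0.62 to 1.50 and a median of -0.04. They named 35 host symbols, of which 26 appear on no probe set with 1 symbol, so MIR155HG, MIR22HG, MIR23AHG, SNHG1, SNHG5 and SNHG12 have no value of their own here. Of these probe sets 4 listed GAS5 and 1 listed MIR17HG.

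The start regions of 4 hosts are shown because 3 of them fell and ZFAS1 lay just outside the threshold, 250 bases before to 50 after the RefSeq start (GRCh38.p14): the fallen SNHG32 at chr6:31834666-31834965 on the plus strand, ZFAS1 at chr20:49278392-49278691 on the plus strand, MIRLET7BHG at chr22:46085747-46086046 on the plus strand and MIR1915HG at chr10:21497211-21497510 on the minus strand. Capitals mark a start motif of the pyrimidine-tract type on the gene's strand within 20 bases of the start. The motifs searched were CTTTT and CTTTC, together with CTTCT, then CTCTT, and finally CCTTT.
SNHG32: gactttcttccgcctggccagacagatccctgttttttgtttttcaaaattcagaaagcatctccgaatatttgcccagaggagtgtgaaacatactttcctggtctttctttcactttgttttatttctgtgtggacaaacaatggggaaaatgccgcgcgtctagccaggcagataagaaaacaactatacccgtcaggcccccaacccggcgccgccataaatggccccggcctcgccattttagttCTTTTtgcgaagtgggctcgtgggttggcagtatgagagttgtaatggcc
ZFAS1: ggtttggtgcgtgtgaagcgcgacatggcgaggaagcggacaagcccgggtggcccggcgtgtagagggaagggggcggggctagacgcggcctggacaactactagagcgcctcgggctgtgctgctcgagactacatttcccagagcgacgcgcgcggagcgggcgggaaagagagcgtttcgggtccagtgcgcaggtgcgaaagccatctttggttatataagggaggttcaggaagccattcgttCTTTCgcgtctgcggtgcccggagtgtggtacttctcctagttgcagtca
MIRLET7BHG: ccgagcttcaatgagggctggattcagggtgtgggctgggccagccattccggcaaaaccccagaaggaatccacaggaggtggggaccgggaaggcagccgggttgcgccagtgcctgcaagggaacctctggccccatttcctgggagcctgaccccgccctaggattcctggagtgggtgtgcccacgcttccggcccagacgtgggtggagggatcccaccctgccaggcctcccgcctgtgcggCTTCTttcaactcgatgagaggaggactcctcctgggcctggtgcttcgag
MIR1915HG: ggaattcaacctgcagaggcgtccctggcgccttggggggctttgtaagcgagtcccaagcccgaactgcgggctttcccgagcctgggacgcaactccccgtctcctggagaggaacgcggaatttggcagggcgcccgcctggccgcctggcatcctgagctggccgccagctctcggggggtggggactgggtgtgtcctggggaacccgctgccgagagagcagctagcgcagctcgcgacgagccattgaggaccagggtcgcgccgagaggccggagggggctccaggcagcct
The tract began at the start in SNHG32 and ZFAS1, 1 base before it in MIRLET7BHG, and was not found within 20 bases of the MIR1915HG start. It was present in 15 of 54 windows of the hosts (27.8%), in 5 of 14 snoRNA host windows and in 19.1% of all 35116 windows. The E-box CACGTG, bound by MYC among others, was in 0 of 54 host windows and in 7.26% of all windows. GTGGGAA, the core of the site for RBPJ, the DNA-binding partner of Notch, was in 5 host windows (9.26%) and in 6.25% of all windows. Of the 6 fallen genes with a window, MIR9-3HG held it, in 1 of its 4 windows. TGANTCA, an AP-1 site, was in 1 host window (1.85%), against 7.71% of all windows. The interferon-response element was in 2 host windows (3.70%, against 3.57%) and the kappaB consensus in 6 (11.1%, against 7.73%).

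Genes of the pathways that make and use these small RNAs were read from lists, and most of them lay at or above the median probe set signal, where 21.3% of all genes fell and 16% rose. Of 18 measured genes that process microRNAs or carry out their silencing, 7 fell (38.9%) and 0 rose by limma, with a list median of -0.12, and 16 of the 18 were that bright. At an unadjusted p under 0.05, 8 were lower and 0 higher, against 3681 lower and 2529 higher of all 12772 genes that bright. TNRC6C and TNRC6B are scaffolds of the silencing complex, TUT4 adds uridines to RNA ends and AGO4 is an Argonaute. TNRC6C had 7.42, 7.25 and 7.55 in Dll4-Fc arrays, against 8.17, 8.10 and 7.97 in untreated arrays (-0.68 ± 0.09, adjusted p 0.00146). With the mean of all probe sets TNRC6C was at -0.24 and TNRC6B at -0.31, and both passed. By its brightest probe set TNRC6B differed by -0.53, TUT4 by -0.37 and AGO4 by -0.34, and in all 3 the groups did not overlap. DROSHA, the nuclear enzyme that cuts the hairpin from its host, fell by 0.28 ± 0.06 (adjusted p 0.0127), and without Dll4-Fc replicate 1 it did not pass (adjusted p 0.0577). DICER1 did not pass (-0.09 ± 0.07, adjusted p 0.433).

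Of 29 protein-coding genes with a microRNA in an intron, 12 fell (41.4%) and 1 rose, with a median of -0.09, and 27 of the 29 were that bright. MEST, an imprinted gene that carries miR-335, fell by 1.22 ± 0.07 (adjusted p 2.54e-05). EGFL7, which carries miR-126, fell by 0.60, and DALRD3, which carries miR-191 and miR-425, fell by 0.55, though without shared probe sets it was at -0.26 and did not pass (adjusted p 0.260). PTK2, which encodes focal adhesion kinase and carries miR-151, rose by 0.60 ± 0.12 (adjusted p 0.00985), or by 0.29 with the mean of all probe sets (adjusted p 0.00598). Of 32 listed protein-coding snoRNA hosts, 14 had a probe set with 1 symbol, and 13 of these were that bright. Of the 14, 0 passed by limma, where 21.3% of all genes that bright fell and 16% rose, a difference that was not tested. At an unadjusted p under 0.05, 2 were lower and 0 higher, against 3681 lower and 2529 higher of all 12772 genes that bright. Differences of the 14 ran from -0.15 to 0.10.

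Among 6 snoRNA-protein core genes, 1 rose and 1 fell (16.7% each). All 6 were at or above the median probe set signal, where 16% of all genes rose and 21.3% fell. NOP10 rose by 0.49 ± 0.05 (adjusted p 0.000529) and FBL, the methyltransferase fibrillarin, fell by 0.21 (adjusted p 0.0163). Of 11 factors that assemble these particles, 3 fell (27.3%, against 21.3% of all genes that bright) and 0 rose by limma. At an unadjusted p under 0.05, 4 were lower and 0 higher, against 3681 lower and 2529 higher of all 12772 genes that bright. PIH1D1 fell by 0.50, RUVBL2 by 0.35 and ZNHIT3 by 0.33. Of 10 nonsense-mediated decay factors, 2 fell (20%, against the same 21.3%), UPF2 and NBAS, by 0.26 each, and 0 rose, with the same counts at an unadjusted p under 0.05. With the mean of all its probe sets NBAS was at -0.0049 (adjusted p 0.979). Of 10 reported regulators of host transcription, 2 fell (20%, against the same 21.3%) and 1 rose (10%, against 16%), and 9 were that bright. MYC and CEBPA fell, CEBPA by 0.21 with an adjusted p of 0.0447 that was lost under 8 alternatives, and SPI1 rose by 0.31. Of reported targets of miR-155, 5 of 15 rose (33.3%) and 2 fell (13.3%). Of the 15, 13 were at or above the median probe set signal, where 16% of all genes rose and 21.3% fell. MYD88 (0.91), IKBKE (0.65), CEBPB (0.50) and TAB2 (0.39) were among the risers, and SMAD5 (-0.38) and JARID2 (-0.26) fell. Without shared probe sets TAB2 was at -0.03. Of reported targets of the miR-17 cluster, 6 of 12 rose (50%) and 2 fell (16.7%), where 16% of all genes at or above the median probe set signal rose and 21.3% fell. Of the 12, 11 were that bright. CDKN1A, an inhibitor of the cell cycle, had 10.24, 10.12 and 10.07 in Dll4-Fc arrays, against 8.36, 8.31 and 8.34 in untreated arrays (1.80 ± 0.06, adjusted p 1.69e-06). CCND1 rose by 0.55 and TGFBR2 by 0.41 (0.24 with the mean of its probe sets), and SMAD4 fell by 0.43.

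**Figure D4:**
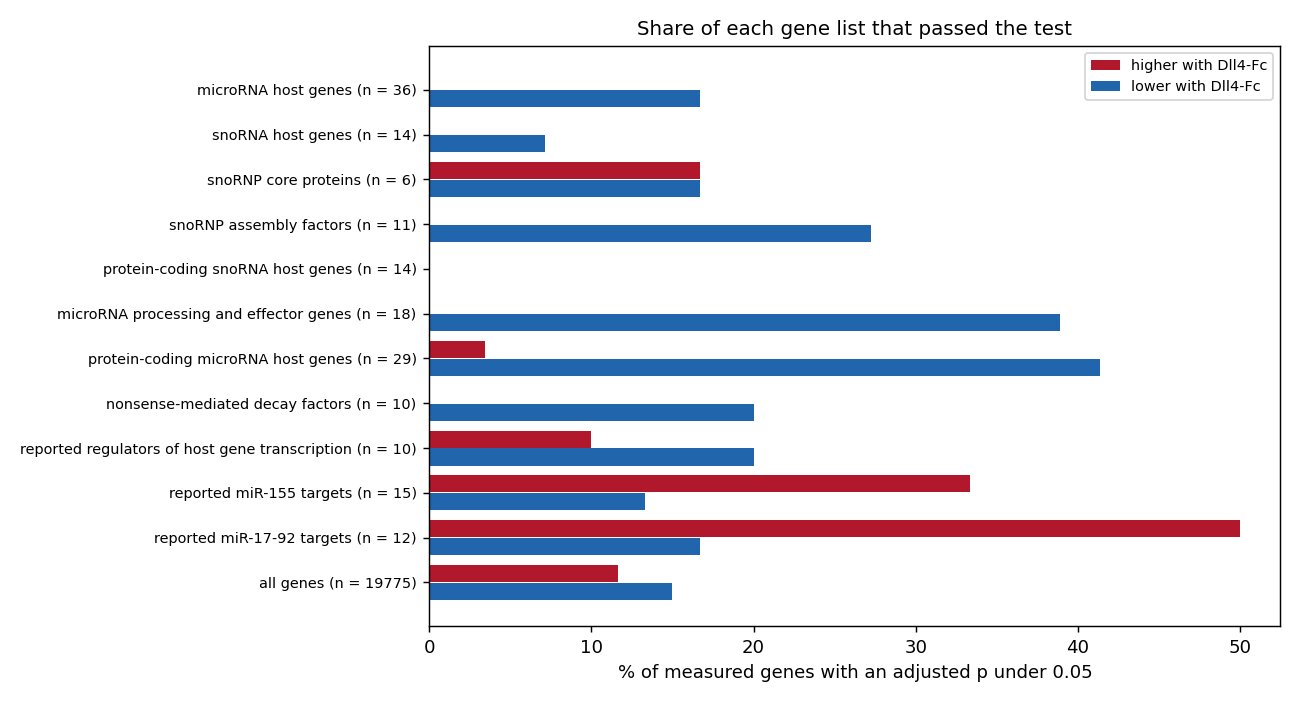
Share of measured genes that passed as higher (red) or lower (blue) in Dll4-Fc arrays, in percent, for both kinds of host gene, 9 gene lists and all genes. The share that fell was 38.9% for microRNA processing genes and 41.4% for protein-coding microRNA hosts, against 21.3% of all genes at or above the median probe set signal, where most of these genes lie, and 15% of all genes. These differences were not tested.

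Of 10 measured monocytic line markers, 6 rose (60%) and 2 fell (20%). Of the 10, 9 were at or above the median probe set signal, where 16% of all genes rose and 21.3% fell. ITGAM, which rose by 1.71, changed sign without shared probe sets. The 2 that fell were ELANE (-0.97) and MPO (-0.79), enzymes of granules. CD14 had 10.63, 10.67 and 10.55 in Dll4-Fc arrays, against 5.46, 4.56 and 4.90 in untreated arrays. The log2 of the summed signal of the 10 was 14.84 to 14.89 in Dll4-Fc arrays and 14.27 to 14.31 in untreated arrays. Their part in the host gene differences was not tested. Of 15 markers of other cell types (stromal, epithelial, lymphoid and endothelial; the 1 erythroid marker listed was not measured) 12 were below the median probe set signal, and PECAM1, which monocytes also express, rose by 0.55. The other 14 did not pass, with differences from -0.19 to 0.20, and the median of the 15 was -0.03. The log2 of the summed signal of the 15 was 12.40 to 12.46 in Dll4-Fc arrays and 11.90 to 12.01 in untreated arrays, most of it from PECAM1, which averaged 12.26 in Dll4-Fc arrays and 11.71 in untreated arrays.

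**Figure D5:**
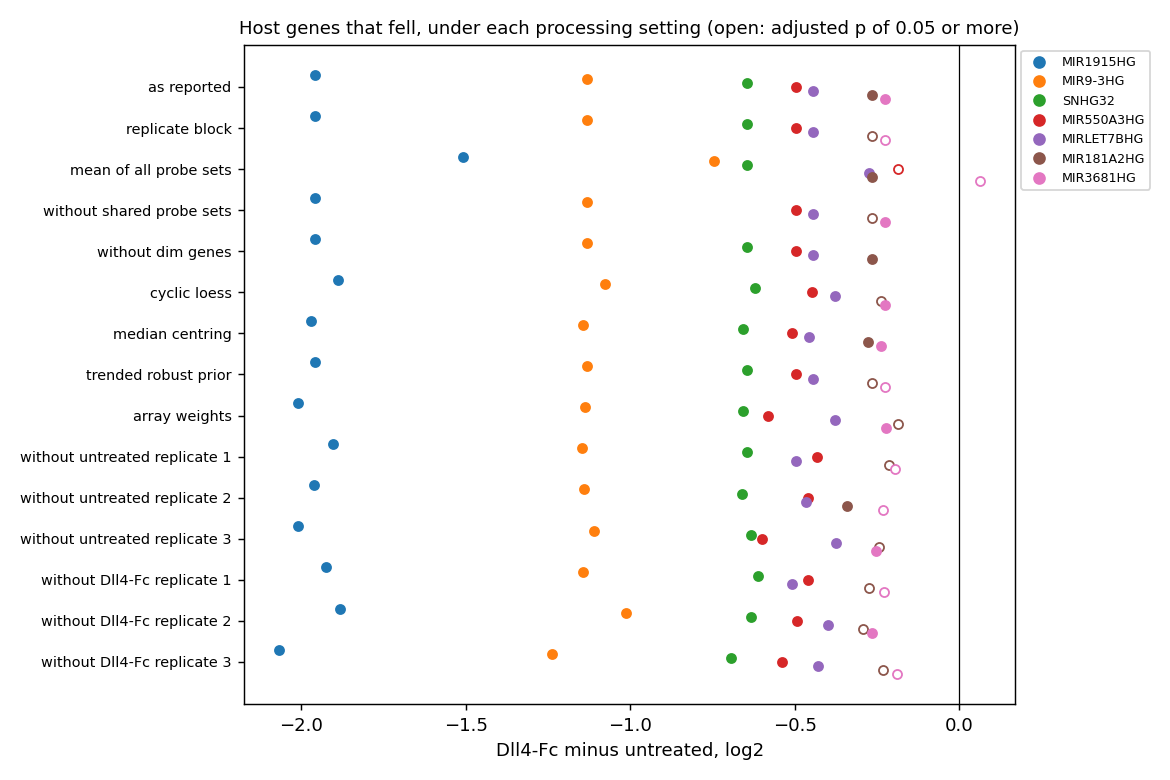
Log2 difference, Dll4-Fc minus untreated, of the 7 host genes that passed, as reported and under each of 14 other processing settings, with open points where the adjusted p was 0.05 or more. MIR1915HG, MIR9-3HG and MIRLET7BHG passed in every setting shown, and SNHG32 in every setting in which it was measured.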

How the data were processed

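RNA of 6 THP1 samples, 3 per group, was measured on Affymetrix Human Genome U133 Plus 2.0 arrays after amplification of 5 ng total RNA, per the labels. The deposited values are linear intensities that the authors made with RMA, per the submitters' processing notes; the RMA version is not stated in the sources used. Intensities were log2 transformed and not filtered. RMA shrinks differences of dim probe sets, and its quantile step hides changes in total RNA. Genes were named from the platform annotation, 1 gene by its brightest probe set over all arrays. Dll4-Fc was set against untreated with limma 3.58.1 (R 4.3.3; lmFit, eBayes, 2-sided, 4 residual degrees of freedom) and Benjamini-Hochberg adjustment over 19775 genes. The number of arrays limits the precision, with a median standard error of 0.075 (log2).

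Members and all gene lists were chosen with earlier results of these data known. Signals per array were given for members that passed with an absolute log2 difference of at least 0.4, and for GAS5, DANCR, ZFAS1, MIR17HG, MIR22HG, MIR155HG and SNHG1; the last 3 had no probe set with 1 symbol. The others given per array (MIR181A2HG, MIR3681HG, MIR210HG and MIR4435-2HG) were chosen after their values were seen. Up to 4 passing genes of a list were named, with MYC, DROSHA and DICER1. Alternatives were a replicate block, means of all probe sets, no shared probe sets, no dim genes, cyclic loess, median centring, a trended robust prior, array weights and leaving out each array. On simulated data with 19775 genes, 50 changes were planted at each of the sizes 0.25, 0.5, 1 and 2. There limma recovered 8%, 64%, 90% and 98% of them, and 139 genes passed in all, against 5262 in these data. Sequences are from RefSeq (GRCh38.p14), which held 49 of the 50 members and a start window for 39; nesting was read from positions in that table.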

Additional observations from a re-analysis of the deposited data

How the results depend on the processing

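MIR1915HG, MIR9-3HG and MIRLET7BHG passed as lower under all 14 alternatives, and SNHG32 under every one in which it was measured. MIR550A3HG did not pass with the mean of all probe sets (-0.19, adjusted p 0.0529). The calls of MIR181A2HG and MIR3681HG, each close to the threshold, were lost under several alternatives, the replicate block included, and the mean of all probe sets turned MIR3681HG to 0.064. With the replicate block, 1829 genes were higher and 2061 lower, and 5 hosts fell, 4 with microRNAs and 1 with snoRNAs, all among the 7. Deviations of same-numbered arrays correlated at 0.01, -0.21 and -0.15, and those of unlike-numbered arrays at -0.04 to 0.22. With 3 arrays per group these values cannot decide whether same-numbered samples were paired, and the labels do not say. Leaving out 1 array gave 1795 to 2269 genes higher and 1850 to 3189 lower, with the lowest counts without untreated replicate 2 (1967 lower) and without Dll4-Fc replicate 1 (1850 lower), and 4 to 6 microRNA hosts and 1 snoRNA host lower. Array weights brought 1 microRNA host past the threshold as higher, MIR4435-2HG. SnoRNA hosts that fell numbered 0 without shared probe sets, for which SNHG32 and ZFAS1 have no value, and 2 without dim genes, with the trended robust prior and with array weights, which added ZFAS1. With the block ZFAS1 had an adjusted p of 0.192. Leaving out 1 array put GAS5 between -0.021 (untreated replicate 2 left out) and 0.079, and at -0.017 with Dll4-Fc replicate 3 left out. With shared probe sets left out, TAB2 was -0.034, against 0.39 with them, and the monocytic marker ITGAM -0.115, against 1.71. Among list genes, FBL and UPF2 each lost their call under 4 alternatives (untreated replicate 2, Dll4-Fc replicate 1 or 2 left out, and the block) and ZNHIT3 with Dll4-Fc replicate 1 left out. The causes were not tested. The background correction was not varied, since only summarised intensities were used here. In simulated data 8% of planted changes of 0.25 were recovered, but there 139 genes passed in all, against 5262 here. The adjusted threshold depends on that number, so the share of such differences missed here is not known.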
